A study of Homo sapiens with 9 samples.

Results

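The S100 calcium-binding proteins are described here by 10 genes, S100A2, S100A3, S100A4, S100A6, S100A8, S100A9, S100A11, S100A14, S100A16 and S100P. They were found by gene symbol in the annotation of the array, and a gene with several transcript clusters would have been represented by the one with the highest mean over all 9 arrays. All 10 were found among the 67528 transcript clusters (hereafter transcripts) tested, each had 1 transcript, and 0 shared it with another gene symbol. The rule uses gene names and the mean over all arrays, and no difference between groups.

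RNA came from 22Rv1, a human prostate cancer cell line, in 3 groups of 3 arrays each. SSX2 knockdown cells (KD) carried an shRNA plasmid against SSX2, scramble control cells (SCR) carried a scramble shRNA, and wildtype cells (WT) were not transfected. KD and SCR cells were transfected with lipofectamine and kept in neomycin. Cells of all groups grew in DMEM with fetal calf serum to confluence. The sources describe no repeat of a transfection, and the arrays of a group are labelled technical replicates, so every p-value below measures only the spread between technical replicates. Levels are log2 intensities after RMA (usually a background correction, normalization and summary of probes), run by the authors, on the Affymetrix Human Transcriptome Array 2.0. The labels give an average RNA integrity number of 2.50, which is low, and its part in the results was not tested.

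S100 proteins are small EF-hand proteins, mostly dimers, that change shape on binding calcium and then dock onto target proteins. Inside cells they act on annexins, myosin, scaffold proteins and ezrin, and once released several of them bind the receptor for advanced glycation end products (AGER) or the Toll-like receptor TLR4. Most of the genes lie side by side on the long arm of chromosome 1, next to genes of the epidermal barrier, while S100P lies on chromosome 4. In carcinomas S100A4 and S100P are known for their links with invasion, and S100A8 with S100A9 forms calprotectin, an abundant protein of neutrophils.

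The 250 bases before the start of S100A6, S100A16 and S100P are shown because these are the members whose levels differed past the threshold, as given below. Sequences are those of RefSeq for GRCh38.p14, written in the direction of the gene. Capitals mark a match to any of 4 motifs searched on both strands, namely AP-1 (TGANTCA), the TATA box (TATAAA), the GC box (GGGCGG) and an E-box (CACCTG).
S100A6, chr1:153535992-153536241, minus strand: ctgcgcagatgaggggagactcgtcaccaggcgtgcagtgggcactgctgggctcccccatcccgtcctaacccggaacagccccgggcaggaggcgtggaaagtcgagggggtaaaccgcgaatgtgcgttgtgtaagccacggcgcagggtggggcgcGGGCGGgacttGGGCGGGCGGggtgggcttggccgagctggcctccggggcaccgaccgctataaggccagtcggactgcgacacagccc
S100A16, outer start, chr1:153613138-153613387, minus strand: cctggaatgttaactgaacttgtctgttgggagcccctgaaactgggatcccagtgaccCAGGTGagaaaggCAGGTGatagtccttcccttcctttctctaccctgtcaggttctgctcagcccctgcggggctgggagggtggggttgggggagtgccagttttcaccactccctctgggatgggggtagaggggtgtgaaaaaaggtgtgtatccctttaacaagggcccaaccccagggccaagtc
S100A16, inner start, chr1:153609356-153609605, minus strand: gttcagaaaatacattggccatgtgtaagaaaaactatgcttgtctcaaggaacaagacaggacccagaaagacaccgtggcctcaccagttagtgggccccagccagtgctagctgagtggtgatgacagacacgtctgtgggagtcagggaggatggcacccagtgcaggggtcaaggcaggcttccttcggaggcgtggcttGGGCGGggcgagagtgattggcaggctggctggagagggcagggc
S100P, chr4:6693628-6693877, plus strand: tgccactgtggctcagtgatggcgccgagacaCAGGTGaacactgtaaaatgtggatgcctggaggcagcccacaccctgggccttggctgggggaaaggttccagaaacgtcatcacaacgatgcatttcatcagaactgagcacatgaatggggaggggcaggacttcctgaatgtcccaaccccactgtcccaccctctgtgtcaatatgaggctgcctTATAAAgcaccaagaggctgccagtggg

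The S100A6 window held 3 GC box matches, beginning 90, 79 and 75 bases before the start, the last 2 overlapping each other, and no match to the other motifs. The outer S100A16 window held a pair of E-box matches, at 191 and 178 bases, and the inner window a GC box match at 45 bases. The S100P window held a TATA box match at 28 bases and an E-box match at 218 bases. The table listed 14 starts for the 10 genes. AP-1 matched in 2 of these 14 windows, against 6.57% of all 35116 promoter windows of that length in the table, and the TATA box in 5 of 14, against 10.7%. A GC box stood in 5 of 14, against 42.6%, and an E-box in 9 of 14, against 17.5%. Windows of 1 gene can overlap, as those of the 3 starts of S100A8 do, and a match describes letters and not a bound factor.

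SSX2, which the shRNA targets, and its close copy SSX2B share a pair of transcripts on the array. The brighter transcript measured 5.19, 5.06 and 5.14 on KD arrays, 11.94, 11.94 and 11.94 on SCR arrays and 11.89, 11.89 and 11.98 on WT arrays. KD arrays thus lay far below both controls, as their labels state (log2 difference -6.81 against SCR, limma adjusted p = 7.5e-12). Array medians lay between 5.41 and 5.50. Medians of the 23 antigenomic background sets, whose probes have no human target, ranged between 3.60 and 3.81. A group mean is called near background if it lies below the group's average of these medians or no more than 0.5 above it. Over all transcripts the median difference was -0.06 in KD against SCR and -0.06 in KD against WT. Of the prostate luminal markers measured under their own symbol, KRT8, KRT18 and EPCAM differed by 0.08, 0.10 and 0.01 in KD against SCR, whereas KLK3 and HOXB13 fell by 1.58 and 2.33 on the log2 scale.

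In KD cells S100A6 and S100A16 rose and S100P fell against SCR, and the same 3 genes passed in the same directions against WT. The difference was 0.96 for S100A6, 0.87 for S100A16 and -1.12 for S100P in KD against SCR on the log2 scale. The other 7 members did not pass at a Bonferroni-adjusted p under 0.05 from limma over all 67528 transcripts, the correction that the study's methods name. Thus 2 of 10 members were called higher and 1 of 10 lower against SCR, where 4.08% of all transcripts were called higher and 4.68% lower. Against WT the counts were again 2 and 1, beside 4.13% and 4.49% of all transcripts. The members' median difference was 0.32 in KD against SCR and 0.34 in KD against WT. With the methods' analysis of variance and Bonferroni correction 0 of 10 members passed against either control. That setting called few of all 67528 transcripts, 258 higher and 245 lower against SCR, and 182 and 177 against WT. The paper reports larger numbers of increased and of decreased transcripts in KD against SCR. Here and below the methods' analysis of variance therefore means the test as run here, not the calls of the study. With only the compared groups in the limma fit S100A6 alone passed. There 1770 of all transcripts were called higher and 1997 lower against SCR, and 1718 and 1737 against WT. Both comparisons share the KD arrays and are given side by side, not as independent repeats. In SCR against WT, where 0.141% of all transcripts were called higher and 0.074% lower, 0 of 10 members passed, and 0 had an unadjusted p under 0.05 or passed with Benjamini-Hochberg adjustment. Their differences in SCR against WT lay between -0.13 and 0.09.

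**Figure D1:**
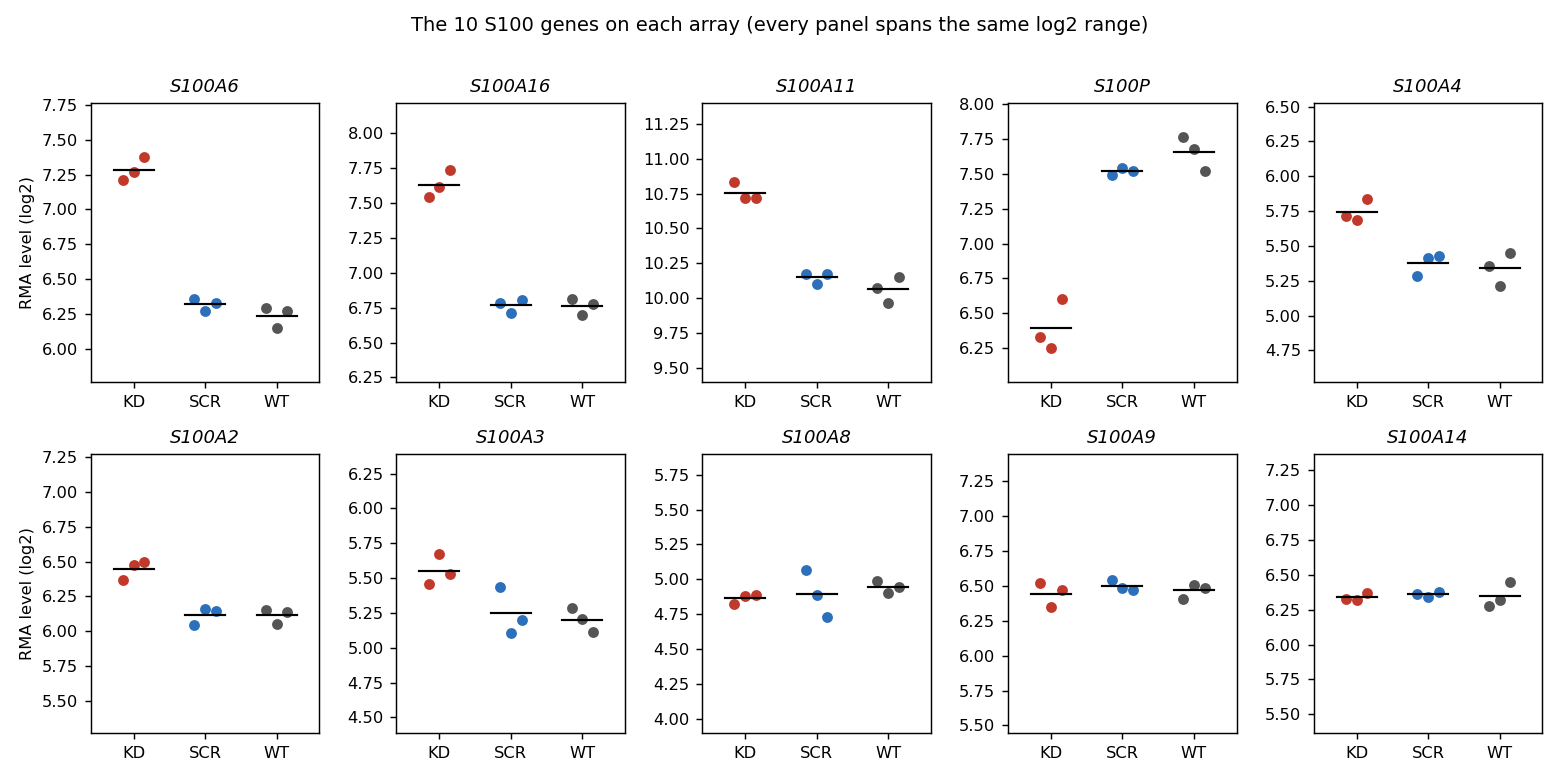
RMA level (log2) of each S100 gene on every array, with KD, SCR and WT from left to right, 3 points per group and a bar at the group mean; each panel spans the same log2 range around its own centre. The 3 KD points of S100A6, S100A16, S100A11, S100A4, S100A2 and S100A3 lie above every control point, those of S100P lie below, and those of S100A9 and S100A14 overlap with both controls.

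S100A6, or calcyclin, a protein of proliferating cells that binds annexins and the calcyclin-binding protein CACYBP, measured 7.21, 7.27 and 7.38 on KD arrays, 6.36, 6.27 and 6.33 on SCR arrays and 6.29, 6.15 and 6.27 on WT arrays. Every KD array lay above every control array, and SCR and WT arrays overlapped. Means were 7.28 ± 0.08 for KD, 6.32 ± 0.04 for SCR and 6.24 ± 0.08 for WT cells (SD, n = 3 arrays each). That is a 1.95-fold rise against SCR (log2 difference 0.96, SE 0.06, limma adjusted p = 0.0031) and a 2.07-fold rise against WT (1.05, adjusted p = 0.0015). By size of the rise against SCR, S100A6 stood at rank 1100 of 22468 genes with a symbol of their own. Leaving out any 1 of the 9 arrays kept its call, with an adjusted p of at most 0.039 against SCR.

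S100A16, a broadly expressed member whose first EF-hand binds calcium poorly, measured 7.54, 7.61 and 7.74 on KD arrays, 6.78, 6.71 and 6.80 on SCR arrays and 6.82, 6.70 and 6.77 on WT arrays. Its lowest KD value stood above the highest control value, and the controls were interleaved. It rose 1.82-fold against SCR (log2 difference 0.87, SE 0.06, limma adjusted p = 0.0094) and 1.83-fold against WT (0.87, adjusted p = 0.0090), and ranked 1289 of 22468 by rise against SCR. Against SCR the adjusted p was 0.10 without KD 2, 0.10 without SCR 1, 0.099 without SCR 2 and 0.080 without SCR 3. Against WT it was 0.096 without KD 2, 0.065 without WT 1, 0.091 without WT 2 and 0.093 without WT 3.

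S100P, first found in placenta and known to bind ezrin and AGER, measured 6.33, 6.25 and 6.61 on KD arrays, 7.49, 7.54 and 7.52 on SCR arrays and 7.76, 7.68 and 7.52 on WT arrays. All KD arrays lay below all control arrays, and KD 3 stood above the other KD arrays. Means were 6.39 ± 0.19 for KD, 7.52 ± 0.03 for SCR and 7.65 ± 0.12 for WT cells (SD, n = 3 arrays each). S100P fell by 1.12 on the log2 scale against SCR (SE 0.09, limma adjusted p = 0.038), which is 2.18-fold lower, and by 1.26 against WT (adjusted p = 0.014), which is 2.39-fold lower. It ranked 765 of 22468 genes by fall against SCR. Its spread over the KD arrays was the widest of the 10 members in that group, and its call was lost in most fits without 1 array. Against SCR the adjusted p was 0.53 without KD 1, 0.22 without KD 2 and 0.0089 without KD 3, it was 0.32, 0.34 and 0.36 without SCR 1, SCR 2 and SCR 3, and 0.099, 0.19 and 0.055 without WT 1, WT 2 and WT 3, whose spread enters the fit. Against WT it was 0.22, 0.087 and 0.0038 without KD 1, KD 2 and KD 3, 0.060, 0.051 and 0.059 without SCR 1, SCR 2 and SCR 3, and 0.14, 0.20 and 0.035 without WT 1, WT 2 and WT 3. With quantile normalization its adjusted p against SCR was 0.053.

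S100A11, or calgizzarin, a partner of annexin A1 that takes part in membrane repair, measured 10.83, 10.72 and 10.72 on KD arrays, 10.18, 10.10 and 10.18 on SCR arrays and 10.07, 9.97 and 10.15 on WT arrays. KD arrays lay above all control arrays. RefSeq lists several pseudogenes of S100A11, which may share its probe signal. The difference of 0.60 against SCR (1.52-fold, SE 0.06, 95% confidence interval 0.47 to 0.74) had an adjusted p of 0.19 in limma, and that of 0.69 against WT (1.62-fold, 95% confidence interval 0.56 to 0.83) one of 0.058. It did not pass the threshold in either comparison, although it passed with Benjamini-Hochberg adjustment (adjusted p = 2.5e-05 against SCR and 9.6e-06 against WT).

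S100A4, which binds the heavy chain of non-muscle myosin IIA, measured 5.72, 5.68 and 5.84 on KD arrays, 5.29, 5.41 and 5.43 on SCR arrays and 5.35, 5.21 and 5.45 on WT arrays. S100A2, a nuclear member typical of basal epithelial cells, measured 6.37, 6.48 and 6.50 on KD arrays, 6.04, 6.16 and 6.15 on SCR arrays and 6.16, 6.05 and 6.14 on WT arrays. S100A3, a cysteine-rich, zinc-binding protein of the hair cuticle, measured 5.46, 5.67 and 5.53 on KD arrays, 5.44, 5.11 and 5.20 on SCR arrays and 5.28, 5.20 and 5.11 on WT arrays. In each of these genes the KD arrays lay above all control arrays, by a narrow margin for S100A3, whose lowest KD array stood beside SCR 1. Their differences against SCR were 0.37 for S100A4 (95% confidence interval 0.21 to 0.53), 0.33 for S100A2 (0.20 to 0.46) and 0.31 for S100A3 (0.10 to 0.51). Against WT they were 0.41, 0.33 and 0.35. All 3 had a Bonferroni-adjusted p of 1 in limma against both controls and passed only with Benjamini-Hochberg adjustment (adjusted p = 0.0026, 0.0011 and 0.026 against SCR).

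By Benjamini-Hochberg adjustment, 6 of 10 members thus stood higher in KD against SCR and 1 stood lower, where 14.8% of all transcripts were called higher and 22.7% lower. Against WT the counts were also 6 and 1, beside 14.8% and 23.7%. Without overlap of the arrays, 6 of 10 members were higher and 1 lower against SCR, where 18.3% of all transcripts were higher and 32% lower in that sense. Against WT 6 were higher and 2 lower without overlap, beside 17.6% and 30.8%, the additional lower one being S100A8.

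S100A8 measured 4.82, 4.88 and 4.89 on KD arrays, 5.07, 4.89 and 4.73 on SCR arrays and 4.99, 4.90 and 4.95 on WT arrays. S100A9, with which it pairs to bind zinc and manganese outside cells, measured 6.52, 6.35 and 6.47 on KD arrays, 6.55, 6.48 and 6.47 on SCR arrays and 6.41, 6.51 and 6.49 on WT arrays. S100A14, an epithelial member, measured 6.33, 6.32 and 6.37 on KD arrays, 6.37, 6.34 and 6.37 on SCR arrays and 6.28, 6.32 and 6.45 on WT arrays. KD and SCR arrays overlapped for all 3 genes. The differences against SCR were -0.03 for S100A8 (95% confidence interval -0.21 to 0.15), -0.06 for S100A9 (-0.19 to 0.07) and -0.02 for S100A14 (-0.14 to 0.10), so those intervals reach at most 0.21 on the log2 scale in either direction. With arrays centred on their medians, the 3 differences against SCR were 0.03, 0.01 and 0.04, on the other side of 0. Against WT the differences were -0.08, -0.02 and -0.01. S100A8 had the mean closest to background, 1.15 above it in KD, 1.18 in SCR and 1.23 in WT cells, and 0 of the 10 members were near background in any group. Some were still dim. No group mean of S100A8 reached 5.46, so removal of dim transcripts left it out. The SCR and WT means of S100A3 (5.25 and 5.20) and S100A4 (5.38 and 5.34) lay below every array median. Of 7 marker genes of myeloid cells, in which calprotectin is abundant, 0 were called in either direction in KD against SCR, with 0 at an unadjusted p under 0.05 and differences of -0.12 to 0.12. PTPRC, which marks all leukocytes, and LYZ were near background in all 3 groups. The remaining myeloid markers were not, with MPO, CSF3R, ITGAM, CD14 and FCGR3A 2.80, 2.39, 2.05, 1.71 and 0.52 above it in KD cells.

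**Figure D2:**
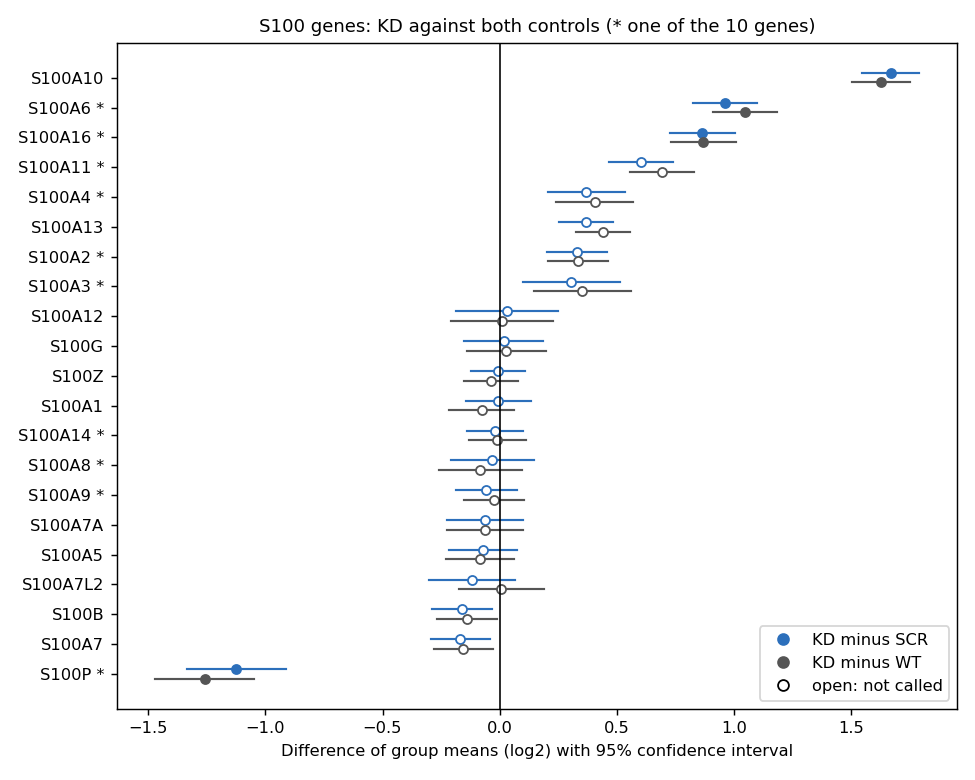
Difference of group means (log2) for 21 S100 genes in KD minus SCR (blue) and KD minus WT (grey) with 95% confidence intervals, filled where the Bonferroni-adjusted p from limma was under 0.05; asterisks mark the 10 genes of the report. Only S100A10, S100A6, S100A16 and S100P have filled points, at 1.67, 0.96, 0.87 and -1.12 for KD minus SCR.

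Among the other 11 S100 genes, 1 was called higher and 0 lower in KD against SCR by limma (at an unadjusted p under 0.05, 2 and 2, where 17% of all transcripts were higher and 28% lower in that sense). S100A10, the partner of annexin A2 at the plasma membrane and a member that does not bind calcium, measured 9.29, 9.29 and 9.40 on KD arrays, 7.62, 7.65 and 7.71 on SCR arrays and 7.71, 7.64 and 7.76 on WT arrays. It rose by 1.67 on the log2 scale against SCR (SE 0.05, adjusted p = 7.2e-06) and by 1.63 against WT, without overlap. S100A13, which takes part in the release of growth factors that lack a signal peptide, measured 7.20, 7.30 and 7.31 on KD arrays, 6.93, 6.88 and 6.89 on SCR arrays and 6.89, 6.79 and 6.80 on WT arrays. Its difference of 0.37 against SCR had a Bonferroni-adjusted p of 1 and passed only with Benjamini-Hochberg adjustment. S100A1, found mainly in muscle, S100A5, S100B, a protein of glia and melanocytes, and S100A7L2 differed by -0.01, -0.07, -0.16 and -0.12 against SCR and did not pass. S100A7, S100A7A, S100A12, S100G and S100Z were near background in all 3 groups, with differences between -0.17 and 0.03. S100A7 and S100A7A are close copies that may share probe signal. The median over these 11 genes was -0.01 in KD against SCR.

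The order of the genes on chromosome 1, taken from RefSeq, places measured S100 genes in a row that includes S100A6, S100A5, S100A4, S100A3, S100A2, S100A16, S100A14, S100A13 and S100A1. Of these, S100A6 and S100A16 passed in KD against SCR with Bonferroni adjustment. S100A4, S100A3, S100A2, which lies directly beside S100A16, and S100A13 differed by 0.37, 0.31, 0.33 and 0.37 and passed only with Benjamini-Hochberg adjustment. S100A5, beside S100A6, differed by -0.07, S100A14, on the other side of S100A16, by -0.02, and S100A1 by -0.01. The row continues on the other side of S100A6, where S100A7, S100A7A, S100A8, S100A12 and S100A9 differed by -0.17, -0.06, -0.03, 0.03 and -0.06. Of 17 flanking genes measured around the S100 loci, 0 were called higher by limma and 1 lower (at an unadjusted p under 0.05, 7 and 3, beside 17% and 28% of all transcripts). The lower one was SLC27A3, a fatty acid transport protein gene, which fell by 1.03 on the log2 scale (SE 0.05, adjusted p = 2.0e-04). It measured 6.89 to 7.01 on KD arrays, 7.99 to 8.01 on SCR arrays and 7.92 to 7.98 on WT arrays, without overlap of KD with either control. Against WT, THEM4, near the S100A10 and S100A11 loci, was also called (0.61 higher, adjusted p = 0.019), and its difference against SCR was 0.41. The genes near S100P, MRFAP1 and MRFAP1L1, differed by 0.02 and -0.29 against SCR and did not pass. Over the 17 genes the median was 0.07.

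**Figure D3:**
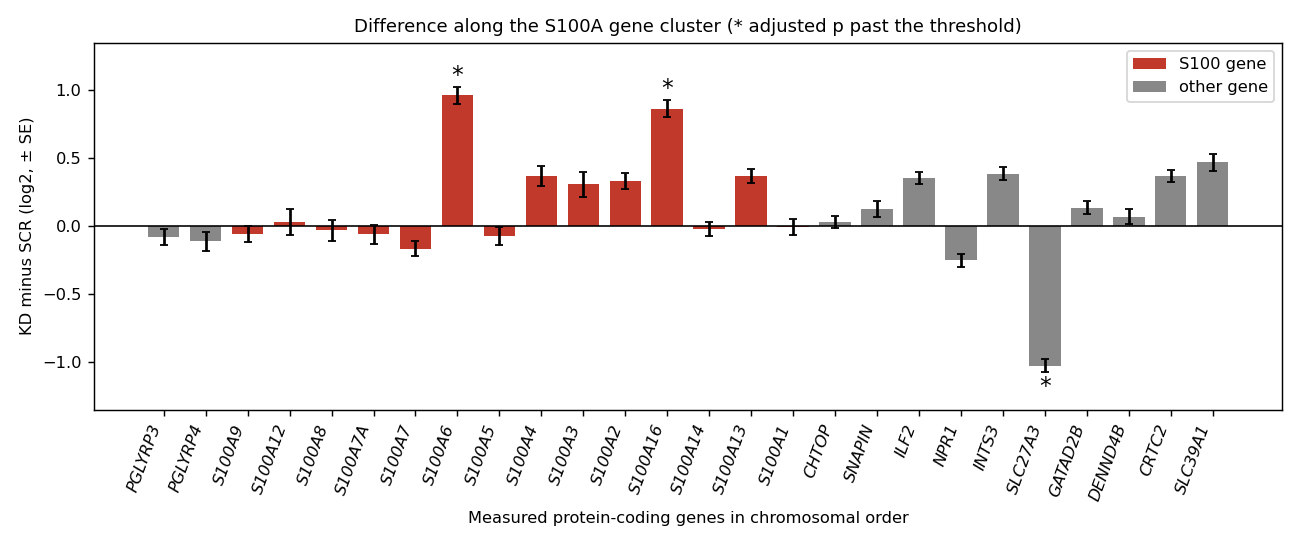
Difference of KD minus SCR (log2, bars with SE) for the measured protein-coding genes of the S100A cluster in their order on chromosome 1, S100 genes in red and others in grey, with asterisks where the Bonferroni-adjusted p from limma was under 0.05. S100A6 (0.96) and S100A16 (0.87) are marked, S100A4 (0.37), S100A3 (0.31), S100A2 (0.33) and S100A13 (0.37) lie above 0 without a mark, S100A5 (-0.07), S100A14 (-0.02) and S100A1 (-0.01) lie near 0, and SLC27A3 (-1.03) is the only marked bar below 0.

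The epidermal differentiation complex, whose genes for cornified envelope and filaggrin-type proteins lie beside the S100 genes, showed no call. Of 25 measured genes, limma called 0 higher and 0 lower in KD against SCR (1 and 4 at an unadjusted p under 0.05, beside 17% and 28% of all transcripts), and the median was -0.04. SPRR1A, a small proline-rich envelope protein, had the lowest difference (-0.38, adjusted p = 1). FLG2, HRNR, TCHHL1, RPTN, SPRR2F and SMCP were near background in all 3 groups. Basal epithelial markers KRT5, KRT14 and DSG3 differed by -0.06, 0.01 and 0.10 and did not pass.

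Receptors and binding partners of S100 proteins were measured for 18 of 19 listed genes. Of these, 7 were called higher and 0 lower in KD against SCR by limma (at an unadjusted p under 0.05, 12 and 4, beside 17% and 28% of all transcripts), and the median was 0.26. ANXA2, the partner of S100A10, averaged 12.21 ± 0.02 in KD, 5.86 ± 0.04 in SCR and 5.94 ± 0.08 in WT cells (SD, n = 3 arrays each), a difference of 6.35 against SCR (adjusted p = 2.2e-11). ANXA1, the partner of S100A11, measured 9.99, 9.84 and 9.83 on KD arrays, 3.78, 3.88 and 3.96 on SCR arrays and 3.84, 3.82 and 3.82 on WT arrays. Its difference of 6.01 against SCR is a lower bound on the change, since both controls were near background. ANXA11 and ANXA6, which bind S100A6 among others, rose by 1.09 and 0.92 on the log2 scale against SCR.

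IQGAP1, a scaffold protein of the actin cortex that binds S100P, measured 11.39, 11.34 and 11.29 on KD arrays, 9.79, 9.83 and 9.85 on SCR arrays and 9.78, 9.82 and 9.87 on WT arrays. It rose by 1.51 against SCR (adjusted p = 6.1e-06), while S100P fell. MYH9, the myosin heavy chain that S100A4 binds, rose by 0.93, and AHNAK, a large scaffold that binds the pair of S100A10 and annexin A2, by 0.90. Genes of the extracellular receptors gave smaller values, 0.16 for AGER, -0.14 for TLR4 and 0.32 for BSG, which binds S100A9, and none of these passed. EZR, the gene of ezrin, measured 11.01 to 11.23 on KD arrays, 10.96 to 11.02 on SCR arrays and 10.55 to 10.58 on WT arrays. KD and SCR arrays overlapped and both stood above WT, and its differences of 0.15 against SCR and 0.58 against WT did not pass. CACYBP and S100PBP, proteins named for binding S100A6 and S100P, differed by 0.03 and -0.05. The remaining partners, PPFIBP1, DIAPH1, NCL, SUGT1 and STIP1, differed by -0.33, -0.16, -0.13, 0.21 and 0.59 against SCR and did not pass with Bonferroni adjustment. PPFIBP1 had the largest fall of the listed partners, and it passed with Benjamini-Hochberg adjustment (limma adjusted p = 0.00056). Of the genes called here beside the 10 members, ANXA2 and ANXA1 passed under the methods' analysis of variance with Bonferroni correction, and the other 5 partners, S100A10 and SLC27A3 did not.

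**Figure D4:**
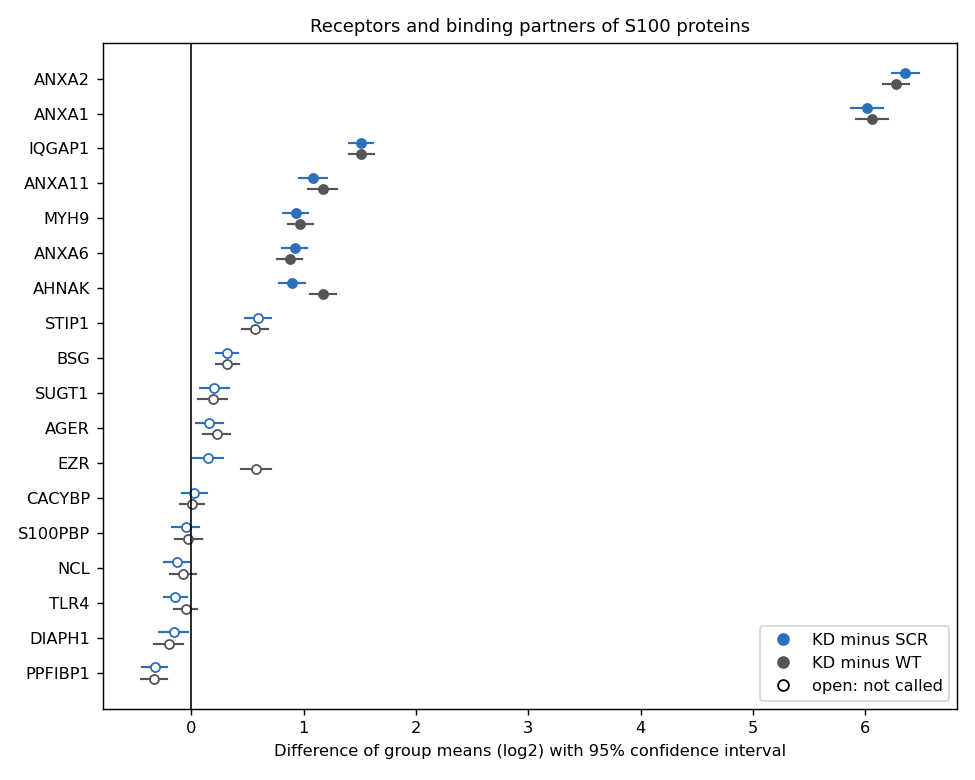
Difference of group means (log2) with 95% confidence intervals for 18 receptors and binding partners of S100 proteins in KD minus SCR (blue) and KD minus WT (grey), filled where the Bonferroni-adjusted p from limma was under 0.05. ANXA2 (6.35) and ANXA1 (6.01) lie far above the rest, 5 more genes between 0.90 and 1.51 are filled, and the receptors AGER, TLR4 and BSG are open.

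The genes whose 9 array values, each centred on its own mean, lay closest to those of S100P by Euclidean distance were CACNB2, SERHL and KATNAL2, among 22467 genes compared. CACNB2, a calcium channel subunit, averaged 5.99 in KD, 7.20 in SCR and 7.35 in WT cells (distance 0.24). SERHL averaged 6.19 in KD, 7.23 in SCR and 7.38 in WT cells (distance 0.25), and KATNAL2 averaged 5.69 in KD, 6.83 in SCR and 6.92 in WT cells (distance 0.26). Closest to S100A6 were STARD9, a kinesin, ENO1, the glycolytic enzyme enolase, and CA2, a carbonic anhydrase. STARD9 averaged 6.40 in KD, 5.48 in SCR and 5.42 in WT cells (distance 0.11), ENO1 averaged 11.67 in KD, 10.70 in SCR and 10.63 in WT cells (distance 0.13), and CA2 averaged 6.28 in KD, 5.29 in SCR and 5.28 in WT cells (distance 0.14). These distances rest on 3 groups of 3 arrays, so any gene with a KD difference of like size lies near.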

How the data were processed

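RNA of 22Rv1 cells was read on 9 arrays, 3 for each of KD, SCR and WT. The authors' RMA normalization gave the log2 intensities that were deposited. The submitters' processing notes name Affymetrix Expression Console and Transcriptome Analysis Console 3.0. Which build the array annotation used is not given in the sources read. Of 70523 probe sets, 67528 are transcripts and were tested, and 23 of the other 2995 are antigenomic sets and served as background. The annotation gives 1 symbol to 23784 transcripts. The number of arrays limits the precision.

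R 4.3.3 with limma 3.58.1 fitted a mean per group over all 9 arrays, with moderated variances (6 residual and 3.34 prior degrees of freedom), and called transcripts at a Bonferroni-adjusted p under 0.05, unless another adjustment is named. Confidence intervals (95%) use the same fit. The script was tested on simulated data. Text names all S100 genes, up to 5 rises and 5 falls past the threshold per list of partners, flanking genes and epidermal genes, and the 3 nearest profiles of the members with the largest differences. Names given beyond this rule, such as partners that did not pass, and the promoter motifs were chosen after their values were seen. The members and lists were chosen with earlier results of these data known. Marker lists covered prostate luminal cells (5 of 9 measured), basal epithelium (3 of 5), myeloid cells (7 of 7) and fibroblasts (5 of 5, of which LUM alone was called, -1.14 in KD against SCR, with a KD mean near background). Alternatives were Benjamini-Hochberg adjustment, a 2-fold minimum, the methods' analysis of variance, 2 other scalings, removal of dim transcripts, other fits and each array left out.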

Additional observations from a re-analysis of the deposited data

How the results depend on the processing

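Of the 3 members called in KD against SCR, Benjamini-Hochberg adjustment gave 7, a 2-fold minimum 1 (S100P), the methods' analysis of variance with Bonferroni correction 0, a fit of the compared groups only 1 (S100A6), and fits without 1 array 1 to 3. Against WT, where 3 were also called, these settings gave 7, 2, 0, 1 and 1 to 3. With the array number as replicate block 1 member was called against SCR and 1 against WT, and S100A16 and S100P were lost. Deviations of same-numbered arrays from their group means correlated with r = -0.02 to 0.16 across transcripts, and those of differently numbered arrays with r = -0.21 to 0.09. Such weak values cannot tell whether the numbers pair the arrays. Calls lost under the analysis of variance kept their log2 differences, 0.96 for S100A6, 0.87 for S100A16 and -1.12 for S100P in KD against SCR. That test and the fit of the compared groups only both leave out the arrays of the remaining group. The fit kept S100A6, and the analysis of variance kept 0 members. The cause of the lost calls was not tested. Counts over all 67528 transcripts moved too. In KD against SCR Benjamini-Hochberg adjustment called 10010 higher and 15351 lower, the analysis of variance 258 and 245, and a 2-fold minimum 1684 and 1910. A trended and robust variance called 3352 and 3877, and 1-symbol transcripts only gave 2500 and 2582 of 23784. The 1 other S100 gene called became 3 with Benjamini-Hochberg adjustment and 0 with the analysis of variance. The 7 partners became 14 and 2, and 4 with a 2-fold minimum. The 1 flanking gene became 10 and 0, and 2 with a trended and robust variance or with 1-symbol transcripts only. The 0 epidermal genes became 4 with Benjamini-Hochberg adjustment. Signs near 0 turned. Centring on medians gave 0.033 for S100A8, 0.0083 for S100A9 and 0.045 for S100A14 in KD against SCR, and quantile normalization gave 0.032, 0.022 and 0.057. In KD against WT they gave 0.049 and 0.056 for S100A9, and 0.064 and 0.069 for S100A14. Without 1 array, S100A8 ranged from -0.11 to 0.055 in KD against SCR. In KD against WT, S100A9 ranged from -0.062 to 0.024 and S100A14 from -0.046 to 0.041. In SCR against WT, S100A2 ranged from -0.029 to 0.039, S100A3 from -0.049 to 0.12, S100A4 from -0.027 to 0.092, S100A8 from -0.14 to 0.033, S100A14 from -0.026 to 0.061 and S100A16 from -0.028 to 0.032.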
